A study of Mus musculus with 2 samples.

Results

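5′ isomiRs are copies of a miRNA whose first base lies upstream or downstream of a reference start. They were examined in small RNA libraries of whole mouse brain, and 6954 of the 789591 distinct sequences in the data (here called tags) were of this kind. The members were selected on read counts and sequence. A reference tag was a tag that alone held both raw counts of a name in the study's list of known miRNAs, with at least 1000 reads over both libraries. A member started 1 or 2 nucleotides downstream in a reference tag and held its next 16 nucleotides, or started 1 or 2 nucleotides upstream and contained its first 16. The rule gave 86 reference tags for 87 names, since a single tag stood for miR-199a-3p and miR-199b. Of the 6954 members, 4536 were read in the young library, 5031 in the old library and 2613 in both, and 3501 had been read once.

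The study compared the small RNAs of young and old brains. The young library came from males of the inbred strain C57BL/6J at 5 months of age, and the old library from males of the same strain at 24 to 25 months. Each library combined the cDNA of a pair of animals, so there was 1 library per age and no replicate error could be computed. The young library held 4523267 reads and the old library 6658732 reads, all raw counts per tag. Intervals below are 95% Wilson intervals for a share and Newcombe intervals for a difference. They cover counting error only, since reads amplified by PCR without molecular identifiers are not independent molecules. Tests on the reads compare the 2 libraries and not the ages.

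A miRNA is cut from a hairpin precursor in a pair of steps. Drosha sets the 5′ end of the product from the 5p arm, and Dicer sets the 5′ end of the product from the 3p arm. Bases 2 to 8 form the seed, which pairs with target mRNAs, so a start moved by a single base gives a different seed. Brain is rich in miR-124, miR-9 and miR-128, which are known from neurons and their precursors.

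Sequences of some of the miRNAs described below are shown as pairs, the reference tag first and then the most read tag at the most common shifted start. Capitals mark bases 2 to 8, and T stands for U. Of the 86 reference tags, 73 had a RefSeq mature entry (GRCm38.p6) of their own sequence or name, and the tags below are among these. The first pairs start 1 nucleotide upstream in the isomiR.
miR-101a: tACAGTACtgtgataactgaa
miR-101a isomiR: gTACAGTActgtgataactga
miR-101b: tACAGTACtgtgatagctgaa
miR-101b isomiR: gTACAGTActgtgatagctga
miR-29a: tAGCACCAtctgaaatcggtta
miR-29a isomiR: cTAGCACCatctgaaatcggtt
miR-199a-3p: aCAGTAGTctgcacattggtta
miR-199a-3p isomiR: tACAGTAGtctgcacattggtt
let-7g: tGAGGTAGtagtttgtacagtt
let-7g isomiR: cTGAGGTAgtagtttgtacagtt

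The next pairs start 1 nucleotide downstream in the isomiR, except those of miR-127*, miR-9 and miR-128, which start 2 nucleotides downstream. A star in a name marks the arm of a hairpin first recorded as the less abundant.
miR-140*: tACCACAGggtagaaccacgg
miR-140* isomiR: aCCACAGGgtagaaccacgga
miR-9*: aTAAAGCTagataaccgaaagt
miR-9* isomiR: tAAAGCTAgataaccgaaagta
miR-1839-5p: aAGGTAGAtagaacaggtcttg
miR-1839-5p isomiR: aGGTAGATagaacaggtcttg
miR-132: tAACAGTCtacagccatggtcg
miR-132 isomiR: aACAGTCTacagccatggtcg
miR-433: aTCATGATgggctcctcggtgt
miR-433 isomiR: tCATGATGggctcctcggtgt
let-7f: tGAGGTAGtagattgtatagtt
let-7f isomiR: gAGGTAGTagattgtatagtt
miR-127*: cTGAAGCTcagagggctctgat
miR-127* isomiR: gAAGCTCAgagggctctgattc
miR-9: tCTTTGGTtatctagctgtatga
miR-9 isomiR: tTTGGTTAtctagctgtatga
miR-128: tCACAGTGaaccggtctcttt
miR-128 isomiR: aCAGTGAAccggtctcttt

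The share of shifted reads of a miRNA was taken among its shifted reads and all reads with the reference 5′ end, that is, all tags beginning with the first 16 nucleotides of the reference tag. Most miRNAs had a narrow start and a few had a wide one. The median share over the 86 reference tags was 1.002% in the young and 1.03% in the old library, and single shares ran from 0.0898% to 57.1% in the young and from 0.0782% to 62.9% in the old library. In both libraries, 41 reference tags stayed below 1%, 17 reached at least 5%, and 6 reached at least 20%. The order of the miRNAs was much alike in the libraries, with a Spearman correlation of 0.972 across the 86 reference tags, which share the same library preparation and are not independent replicates. The size of a share depends on the denominator. With the exact reference tag in place of all reads with its start, the median was 2.50% and 2.66%, and miR-124 had 92.6% in the young and 95.6% in the old library, miR-140* 92.9% and 95.3%, miR-101a 85.4% and 87.2%, and miR-101b 84.2% and 87.2%, far above the shares given below. The reference start was also not always the most common one. Starts 1 nucleotide upstream had 40058 young and 33988 old reads for miR-101a, against 35637 and 27401 at the reference start. Starts 2 nucleotides downstream had 4080 and 3229 for miR-127*, against 3617 and 2136, and starts 1 nucleotide downstream had 1965 young reads for miR-9*, against 1809.

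Summed over all reference tags, with each tag counted once, 159694 young and 172585 old reads were shifted. This was a share of 4.74% (4.72 to 4.77%) in the young and 3.34% (3.32 to 3.35%) in the old library. The lower summed share of the old library went with more let-7 reads, most of which belong to miRNAs of low share, and reads with a let-7 reference start stood at 347659 RPM (reads per 1000000 total reads) in the young and 504992 in the old library. Without the let-7 reference tags, an alternative chosen after seeing the data, the shares were 8.65% and 8.92%, so the order of the libraries turned. Of the single miRNAs, 53 had the higher share in the old and 33 in the young library.

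The 10 reference tags with the highest shares gave 78.8% of the young and 70.7% of the old shifted reads. miR-101a, a 3p product annotated at chr4:101019562-101019582 on the minus strand (NCBIM37, the assembly called mm9) in an exon of the transcript E130102H24Rik, alone had 40269 young and 34211 old shifted reads. Its share was 53.1% (52.7 to 53.4%) in the young and 55.5% (55.1 to 55.9%) in the old library, and 99.4% of its shifted reads started 1 nucleotide upstream. The tag shown above was read 21832 times in the young and 18445 times in the old library, and the reference tag 6883 and 5025 times. Its paralog miR-101b, at chr19:29209829-29209849 on the plus strand in an intron of Rcl1, had the same upstream start. Its shares were 32.4% (31.8 to 32.9%) and 34.4% (33.8 to 34.98%). The RefSeq entry of miR-101b begins at this upstream base, 1 nucleotide before the reference tag used here, and it was the only reference tag of which this held. The upstream base of both genes in the assembly is the G that the isomiR carries.

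miR-127* had the highest share of the young and of the old library. It lies on the 5p arm of Mir127, chr12:110831064-110831085 on the plus strand, opposite an exon of the imprinted gene Rtl1. Its share was 57.1% (56.0 to 58.1%) in the young and 62.9% (61.7 to 64.2%) in the old library. Of these shifted reads 86.7% started 2 nucleotides downstream, and their most common 3′ end also lay 2 nucleotides further than that of reads with the reference start. miR-382, also named after its values were seen, comes from the same imprinted region at chr12:110971991-110972012 on the plus strand and had 10.7% and 12.5%, mostly 1 nucleotide downstream. miR-433, at chr12:110829991-110830012 on the plus strand, also opposite an exon of Rtl1, had 3.59% and 2.32%.

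miR-140*, the 3p product of Mir140 at chr8:110075188-110075208 on the plus strand in an intron of Wwp2, had 24012 young and 34677 old shifted reads. Its share was 39.3% (38.9 to 39.7%) in the young and 48.8% (48.4 to 49.1%) in the old library, and 96.5% of the shifted reads started 1 nucleotide downstream. miR-140 is best known from cartilage.

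Neural miRNAs had shares from below the median to among the highest. miR-9*, the 3p product of the miR-9 hairpins, matches 3 places in the assembly, on chromosomes 13, 3 and 7. Its share was 52.3% (50.7 to 53.8%) in the young and 41.7% (40.8 to 42.7%) in the old library, and 98.9% of its shifted reads started 1 nucleotide downstream. miR-9, the 5p product of the same hairpins, had 6.40% (6.08 to 6.74%) and 7.36% (7.02 to 7.71%), divided nearly evenly between starts 1 and 2 nucleotides downstream. In the young library these starts had 650 and 695 reads, and in the old library 781 and 788.

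miR-124, which had more reads with its reference start than the other neural markers, matches 3 places on chromosomes 14, 2 and 3. Its share was 11.2% (11.03 to 11.3%) in the young and 13.8% (13.6 to 14.0%) in the old library. It was shifted both ways, with 16418 young and 12410 old reads 1 nucleotide upstream and 5045 and 4813 reads 1 nucleotide downstream. miR-132, an activity-regulated miRNA of neurons at chr11:74987225-74987246 on the plus strand, had 21.0% (18.8 to 23.3%) and 17.5% (15.5 to 19.6%), a difference of -3.49 points (-6.50 to -0.474) with an adjusted p of 0.0854 in Fisher's exact test. miR-128, from introns of R3hdm1 and Arpp21, had 2.06% (1.97 to 2.14%) and 2.43% (2.34 to 2.53%). Of its shifted reads 75.8% started 2 nucleotides downstream. miR-138 had 0.625% and 0.617%, and 0.202% and 0.164% when upstream tags were kept only where templated, that is, where the added bases are those of the assembly. With the exact reference tag in the denominator miR-138 had 2.21% and 2.35%, so its order turned. miR-219-5p, an oligodendrocyte miRNA, had 0.366% on 17 shifted reads and 0.481% on 16 shifted reads, and 0.237% and 0.241% with templated upstream tags. Of the neural list, miR-137, miR-153 and miR-338-3p were below the minimum of reads.

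The others of the 10 highest mean shares belonged to miR-383, miR-199a-3p with miR-199b, and miR-1839-5p. Further miRNAs among the 17 with at least 5% in both libraries had lower mean shares. miR-383, at chr8:39315232-39315253 on the minus strand in an intron of Sgcz, had 31.2% (30.8 to 31.5%) and 31.4% (30.9 to 31.9%), of which 95.5% lay 1 nucleotide upstream. The difference was 0.267 percentage points with an interval of -0.356 to 0.891. miR-199a-3p, which matches 3 miRNA genes opposite introns of the dynamin genes Dnm1, Dnm2 and Dnm3, had 21.96% (20.05 to 24.0%) and 17.5% (16.1 to 18.9%). miR-1839-5p, at chr7:88674805-88674826 on the plus strand, had 16.3% (15.9 to 16.7%) and 15.4% (15.1 to 15.8%). The annotation has no miRNA gene there, but an exon of a snoRNA gene inside an intron of 2900076A07Rik.

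miR-29a differed from its relatives. It lies at chr6:31012673-31012694 on the minus strand between genes, and the miR-29 family is known for targets in the extracellular matrix. It had 12587 young and 23144 old shifted reads, a share of 3.46% (3.40 to 3.52%) and 4.89% (4.83 to 4.95%). Of these 93.3% started 1 nucleotide upstream, and 92.2% did so with the C that precedes the reference start in the assembly. miR-29b and miR-29c share their first 16 nucleotides and had nearly all of their reads in common. Their shares were 0.880% and 0.957% in the young and 0.8998% and 0.946% in the old library. With upstream tags kept only where templated these were 0.435% and 0.513% in the young and 0.418% and 0.464% in the old library, while miR-29a had 3.33% in the young and 4.72% in the old library. The last base before their reference start in the assembly is also C.

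The let-7 miRNAs, which restrain growth and are among the most abundant miRNAs of the adult brain, had the most reads and mostly low shares. let-7g and let-7i have the same first 16 nucleotides, as have let-7a, let-7b and let-7c, so that reads with the reference start could not be divided within these groups. Many shifted tags also counted for several of them. let-7g, at chr9:106081177-106081198 on the plus strand in an intron of Wdr82, had 0.291% (0.280 to 0.304%) in the young and 0.363% (0.352 to 0.373%) in the old library. let-7i had 0.262% and 0.314%, let-7a and let-7c each 0.284% and 0.303%, and let-7b 0.144% and 0.142%. Of those named after their values were seen, let-7e had 0.326% and 0.325%, let-7f 0.296% and 0.355%, and let-7d 0.998% and 0.952%, near the median. These shares depend on the rule: with templated upstream tags let-7b had 0.0186% and 0.0145%. With 18 nucleotides held let-7a had 0.151% and 0.157% and let-7b 0.210% and 0.219%, so let-7b then stood above let-7a. For let-7d, templated upstream tags gave 0.642% and 0.629%, below the medians of that setting, 0.741% and 0.829%. With the exact reference tag in the denominator let-7 shares were higher, 3.51% and 6.91% for let-7i, 3.42% and 3.26% for let-7a, 2.64% and 3.67% for let-7b, 0.656% and 0.681% for let-7c, and 0.449% and 0.537% for let-7g. These put shifted reads counted for several relatives over the tag of a single one and are no shares of its own reads. The most read isomiR tag counted for let-7i, with 1133 young and 2482 old reads, is the tag shown above for let-7g. Because of the depth these low shares still rest on many reads, 2217 young and 4760 old shifted reads for let-7g.

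The next comparison asked whether the share of a miRNA differed between the young and the old library. Of the 83 reference tags with at least 20 shifted reads over both libraries, 3 had a share at least 1.5-fold higher in the old library, which is 3.61%, and 2 a share at least 1.5-fold lower, which is 2.41%. These reference tags are themselves the whole set tested. The 3 were miR-22, miR-212-5p and miR-148a, and the 2 were miR-433 and miR-16; miR-22, miR-148a and miR-16 were named after their values were seen. In a two-sided Fisher's exact test on the reads with Benjamini-Hochberg adjustment over all 86 reference tags, only miR-22 (0.213% on 10 reads against 0.597% on 29 reads, adjusted p = 0.0157) and miR-433 (adjusted p = 3.7e-07) of these passed 0.05. For miR-22, 2 of the 10 young and 15 of the 29 old shifted reads were upstream reads that were not templated. With templated upstream tags its shares were 0.170% and 0.289% (adjusted p = 0.494). miR-16 then had 0.243% on 3 reads and 0.308% on 9 reads, so its direction turned, and the ratios of old to young share of miR-212-5p, miR-148a and miR-433 were 1.51, 1.80 and 0.630.

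Smaller differences passed the test where depth was high. The adjusted p was below 0.05 for 21 reference tags, 16 with the higher share in the old and 5 with the higher share in the young library. The widest gap upward was that of miR-140*, 9.43 percentage points (8.90 to 9.97, adjusted p = 2.71e-258 in Fisher's exact test). The widest downward was that of miR-9*, -10.5 points (-12.4 to -8.68, adjusted p = 8.91e-28). miR-127* differed by 5.83 points (4.19 to 7.46), though with starts 1 nucleotide away it had 13.8% in the young and 12.9% in the old library. miR-124 differed by 2.66 points (2.43 to 2.89), miR-101a by 2.48 points (1.95 to 3.004) and miR-29a by 1.43 points (1.35 to 1.52), all with the higher share in the old library. miR-199a-3p with miR-199b differed by -4.48 points (-6.93 to -2.10). With so many reads the test passes small differences, and with 1 library per age none of them has a replicate check.

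Among the reference tags with at least 20 shifted reads in each library, the largest ratios of old to young share were those of miR-212-5p (1.54), miR-29a (1.41), miR-27b (1.37), miR-152 (1.34) and miR-143 (1.33). Of these, miR-29a and miR-143 passed the adjusted test. With starts 1 nucleotide away, miR-152 had 0.194% in the young and 0.188% in the old library, so its order turned. The smallest ratios were those of miR-433 (0.646), miR-222 (0.721), miR-485 (0.728), miR-181a (0.743) and miR-672 (0.776). Of these, miR-433 and miR-485 passed, but with templated upstream tags miR-485 did not (ratio 0.768, adjusted p = 0.113). With starts 1 nucleotide away, miR-222 had 0.392% and 0.128%, a smaller ratio, and miR-485, whose leading start lies 2 nucleotides away, had 0.0313% and 0.0194%. With templated upstream tags miR-222 had 0.680% and 0.567%, a larger ratio of 0.835. miR-212-5p comes from the same transcript as miR-132, at chr11:74986905-74986927 on the plus strand, and its ratio rests on 26 young and 45 old shifted reads.

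Levels of shifted reads were compared as RPM. The shifted reads of 2 miRNAs were at least 2-fold higher in the old library, let-7f and miR-26b (both named after their values were seen), and those of 17 at least 2-fold lower, out of 83. For reads with the reference start of the same 83 miRNAs the numbers were close, 3 and 20. The 3 included let-7f and miR-26b, with log2 ratios of old to young of 1.07 and 1.12. Among all 14309 tags with at least 20 reads, 17.4% were at least 2-fold higher and 24.9% at least 2-fold lower in the old library. Of the 677 members with at least 20 reads, 51 were at least 2-fold higher and 159 at least 2-fold lower, or 7.53% and 23.5%. The split depends on scaling. With edgeR's TMM factors over the reference tags, the shifted reads of 17 miRNAs were at least 2-fold higher and those of 1 were lower. DESeq2's size factors gave the same counts, so no direction of these levels is drawn. Against the total reads these factors moved each log2 ratio by 0.61 and 0.64. Shares are taken within a library and do not depend on the scaling.

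The shifted reads of miR-101a stood at 8903 RPM in the young and 5138 in the old library, and those of miR-383 at 3871 and 1612. Those of miR-140* stood at 5309 and 5208 while its reads with the reference start were at 8191 and 5473. The shifted reads of miR-29a were at 2783 and 3476 RPM. The median log2 ratio of old to young was -0.37 for shifted reads and -0.55 for reads with the reference start, over the 83 miRNAs with at least 20 shifted reads.

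Direction and arm were described without a test, because miRNAs are not replicates. Of the shifted reads, 61.5% of the young and 54.5% of the old started 1 nucleotide upstream, and 29.4% and 37.1% started 1 nucleotide downstream. Starts 2 nucleotides away were rarer, 2.46% and 2.50% upstream and 6.68% and 5.91% downstream. The median share was 0.638% in the young and 0.675% in the old library over the 48 reference tags of the 5p arm. Over the 37 of the 3p arm it was 1.47% and 1.37%, an order that turned under several alternatives given below. The remaining reference tag, miR-378, could not be placed on an arm. Of the 17 with at least 5% in both libraries, 7 were on the 5p arm and 9 on the 3p arm. By reads over both libraries, the leading start lay upstream for 19 of the 48 and for 14 of the 37. These counts include starts with bases that are not templated. Among the 19, the untemplated part of upstream reads ran from 0% for miR-532-5p to 100% for miR-1224 and miR-33. Among the 14, it ran from 0.447% for miR-101a to 65.9% for miR-29b and miR-29c.

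Over the 17 miRNAs with at least 5% in both libraries, the leading start held a median of 86.7% of the shifted reads, against 65.7% over the other 66 with at least 20 shifted reads. The 17 were chosen by their share of the same shifted reads, so this contrast is not independent of that choice. The groups overlapped: the 17 ran down to 49.9%, with 8 above 90%, and the other 66 ran from 28.9% to 96.3%. In 6 of the 17 it lay 1 nucleotide upstream, in 8 it lay 1 nucleotide downstream and in 3 it lay 2 nucleotides downstream. The most common 3′ end was that of the reads with the reference start in 10 of the 17 and in 56 of all 86 reference tags.

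Upstream bases were compared with the assembly. Reads with an undetermined added base were counted as not templated, 172 of 5114 such young reads and 27 of 6605 such old reads. At 1 nucleotide upstream, 1.68% of young reads and 2.84% of old reads did not carry the base of the annotated genes. At 2 nucleotides upstream, this held for 88.5% of young reads and 91.2% of old reads, and of these 87.2% and 90.6% began with AA. In the 6 miRNAs of high share with an upstream leading start, at most 7.65% of the upstream reads were not templated, so their isomiRs carry the bases of the precursor. miR-485 had its leading start 2 nucleotides upstream, and 6.04% of all its upstream reads were not templated.

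The first base differed between the forms. Of reads with the reference start, 84.1% began with T in the young library and 89.6% in the old library. For shifted reads the values were 13.6% and 11.9%. These percentages are weighted by reads and so by the most read miRNAs. The let-7 miRNAs held 1572556 of 3207206 young reads with the reference start, and 3362605 of 5001725 old ones. Counted per miRNA, T came first in 49 of the 86 reference tags and in 9 isomiRs at the leading start. Among the 17 miRNAs with at least 5% in both libraries the gap was small, with T first in 8 reference tags and 5 isomiRs. Mean lengths were close, 21.8 nucleotides for shifted reads in both libraries and 22.0 nucleotides for reads with the reference start in both.

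None of the 86 leading isomiRs had the seed of another reference tag. For 12 of them the seed was that of a RefSeq mature miRNA. The leading isomiR of let-7f and the one counted for let-7a and let-7c, both downstream, carried the seed of miR-196a-5p and miR-196b-5p, which come from the Hox gene clusters. The tag of let-7f shown above had 303 young and 1178 old reads. For let-7a and let-7c the same tag was counted, with 346 and 871 reads, and it ends like let-7c. The upstream isomiRs of miR-101a and miR-101b carried the seed of the RefSeq entry of miR-101b. Sharing a seed is a match of letters and says nothing of targets in these brains.

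The tissue was checked against marker miRNAs by their reference tags, without a minimum of reads. All 7 neural markers were present, summing to 16935 RPM in the young and 10212 in the old library, with the reference tag of miR-128 the most read at 12590.5 and 7211. This sum leaves out most reads of miR-124, whose reads with the reference start stood at 39692 and 17192 RPM, and the tag of miR-9* was higher in the old library, at 253 and 587. The 2 oligodendrocyte markers summed to 351.3 and 182.6. Of 7 markers of other cells 6 had a tag, summing to 5619 and 8593 RPM. The most abundant was miR-1, a muscle miRNA, at 4649 and 7734, which accounts for the higher sum. miR-206 stood at 757 and 759, and miR-122, miR-204, miR-375 and miR-451 were lower in the old library. These levels are scaled by total reads. TMM and DESeq2's factors move each log2 ratio of old to young upward by 0.61 and 0.64, so no direction of marker levels is drawn. The share of shifted reads of miR-1 was 0.141% and 0.134%, and 0.0882% and 0.0817% with templated upstream tags. In whole tissue, fewer cells of a type and less RNA per cell cannot be told apart, and the part of cell composition in the differences above was not tested. Reads with an undetermined base made up 4.57% of the young and 1.07% of the old library, and the part of this gap in the shares was not tested; 806 young and 42 old shifted reads held such a base.

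At the limit of the rule, the last reference tag inside was miR-410 with 1011 reads, and its shares were 1.79% and 1.34%. The first outside was miR-137 with 976 reads, and its shares were 10.5% and 13.6%.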

How the data were processed

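The deposited values are raw read counts per tag, not normalized. The authors made them by removing adapters, aligning to mm9 and merging equal sequences, so unaligned reads are not used here. Raw counts of known miRNAs in the study's list served to name tags.

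From the counts, shares of shifted reads were computed per miRNA and library. A tag that met the rule for several reference tags counted for each in the shares and once in sums; 620 members (3.47% of member reads) did so. Fisher's exact test was adjusted by Benjamini-Hochberg over 86 reference tags. edgeR's quasi-likelihood test could not be fitted with 1 library per age. A count of 0 was set to 3 in folds. Positions are perfect matches to NCBIM37. The named miRNAs were the 10 highest mean shares, the 5 with most reads (pooled over a shared 16-nucleotide start, so that let-7a, let-7b and let-7c rank together, as do let-7g and let-7i), the 5 largest rises and 5 largest falls of the share with at least 20 shifted reads in each library, and a neural list. Members and lists were chosen with earlier results of these data known. Python 3.11.15, scipy 1.17.1, R 4.3.3, edgeR 4.0.16 and DESeq2 1.42.0 were used, and the calculations were tested on simulated tags.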

Additional observations from a re-analysis of the deposited data

How the results depend on the processing

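No paired analysis was possible because there was 1 library per age. Where a pair of values is given, the young library comes first. The share summed over all reference tags was 3.36% in the old library with 18 nucleotides held, 8.32% and 5.41% with the exact reference tag alone in the denominator, 4.33% and 3.06% with starts 1 nucleotide away, 7.63% and 6.12% with tags holding 16 nucleotides of a single reference tag, 4.60% and 3.21% with templated upstream tags, 4.70% and 3.30% with tags read at least 2 times, 4.64% and 3.26% with tags of 20 to 24 nucleotides, 3.32% and 2.19% with a minimum of 5000 reads per reference tag, and 4.93% and 3.49% without a minimum. Chosen after seeing the data, it was 8.65% and 8.92% without let-7 and 2.95% and 2.06% without miR-101a and miR-140*.

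The median share was 2.50% and 2.66% with the exact tag, 0.566% and 0.646% with starts 1 nucleotide away and 1.62% and 1.65% without a minimum. By arm, it was 2.25% and 2.47% (5p) and 3.78% and 3.12% (3p) with the exact tag, 0.378% and 0.468% (5p) and 0.937% and 0.876% (3p) with starts 1 nucleotide away, and 0.919% and 0.923% (3p) with 5000 reads. The order of the libraries turned for the overall median with tags read at least 2 times (0.909% and 0.885%) and with 20 to 24 nucleotides (0.993% and 0.957%). For the 3p median it turned with 18 nucleotides held (1.68% and 1.74%), tags of a single reference tag (1.71% and 2.02%), tags read at least 2 times (1.27% and 1.31%), 20 to 24 nucleotides (1.14% and 1.34%) and 5000 reads, and, chosen after seeing the data, without miR-101a and miR-140* (1.30% and 1.34%). The number with at least 5% in both libraries was 28 with the exact tag, 9 with 5000 reads and 54 without a minimum.

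The numbers at least 1.5-fold higher and lower were 12 and 6 without a minimum, 1 and 1 with 5000 reads, 0 and 1 with at least 100 shifted reads, and 5 and 1 with tags read at least 2 times. There were 6 higher with templated upstream tags, 5 higher with at least 1 shifted read in each library, and 1 lower with 20 to 24 nucleotides. By level, at least 2-fold higher and lower, they were 17 and 1 with TMM and with DESeq2's factors, 1 and 7 with 5000 reads, 4 and 32 without a minimum, and 1 and 10 with at least 100 shifted reads. There was 1 higher with starts 1 nucleotide away and without let-7.

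The numbers past the adjusted p, 16 and 5, stayed within 1.5 times under the alternatives run for them. Over 198 comparisons of named miRNAs, 190 had the same order of libraries. Of the 8 others, 4 were of let-7b, and the rest were of let-7a, miR-138, miR-152 and miR-127*. With starts 1 nucleotide away miR-127* had 13.8% and 12.9%. The causes were not tested. With tags of a single reference tag, miRNAs without reads at the reference start got no share, let-7g and let-7i among them. Depth limits the ratios of miR-22, miR-212-5p, miR-148a and miR-16, which rest on few shifted reads.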

Other observations

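Starts 3 nucleotides away, just outside the rule, had few reads. Upstream there were 191 young and 233 old reads, and downstream 3032 and 2817. They lay mostly in a few miRNAs. miR-341, a miRNA of the imprinted region of chromosome 12, had 880 young and 487 old reads that started 3 nucleotides downstream, 6.53% and 7.96% of the sum of these reads, its shifted reads and those with the reference start. For miR-376a these were 914 and 761 reads, 3.37% and 2.69%, and for miR-127* 368 and 316 reads, 4.18% and 5.20%.

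In 54 of the 86 miRNAs the reference tag was the most read tag with its own 5′ end. In the other 32 a different tag with the same first 16 nucleotides was read more. In 4 of these it was the reference tag of a relative: let-7c for let-7a and let-7b, let-7g for let-7i, and miR-29c for miR-29b. The reference tag of miR-124 had 1795 young and 842 old reads, while the most read tag with the same start, 1 nucleotide longer, had 62598 and 39087 reads.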
